A study of Mus musculus with 12 samples.

Results

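The genes described here are 34 genes of the pentose phosphate pathway and the antioxidant systems that draw on its product, read in RNA sequencing of mouse spleen T cells. They were taken by symbol from a list of enzymes, carriers and regulators, out of 53762 gene symbols in the count table. The rule itself used no measured value, but the list was chosen with earlier results of these data known. Shares of members called are therefore descriptions of this list and not independent of the data. All 34 were in the table and all 34 passed the filter on low counts. The T cells had shared a culture with cells named Res in the labels, and the design asks which T cell genes differ by the partner and by the time spent with it. There were 4 groups of 3 libraries each: T cells kept with Res_shFabp7 cells for 48 h, with Res_ctrl cells for 48 h, with Res_shFabp7 cells for 24 h and with Res_ctrl cells for 24 h. They are called the shFabp7 and the control partner below. The short hairpin RNA named in the labels was in the partner cells, not in the T cells, and all 4 groups had a partner, so no group shows T cells alone. The sources used here do not give what Res cells are, how many hairpins or clones were used, how the T cells were purified, or the strain, sex and age of the mice.

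The pentose phosphate pathway branches off glycolysis at glucose 6-phosphate. Its oxidative branch makes NADPH, and its non-oxidative branch exchanges ribose 5-phosphate, the sugar of nucleotides, with intermediates of glycolysis. NADPH is the electron source for thioredoxin reductases and glutathione reductase, which keep thioredoxin and glutathione reduced so that peroxiredoxins and glutathione peroxidases can remove peroxides. Superoxide dismutases feed hydrogen peroxide to these enzymes and to catalase, and many of the genes are targets of the transcription factor NRF2, which KEAP1 holds back until cells meet oxidants. Activated T cells are known to raise NADPH and nucleotide synthesis as they grow and divide.

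Library totals were 31952873 to 40638685 counts. Levels are given as CPM, counts relative to library size, scaled by TMM, a correction for differences in library composition, with the SD over 3 libraries. The labels do not state whether the libraries of a group are separate cultures or separate mice, and the tests therefore speak of the spread among these libraries, which may be technical. Every pair of libraries within a group differed beyond counting noise (the chi-square divided by its degrees of freedom was 4.34 to 14.2), and none was counted as a duplicate. Fabp7 itself, the gene named in the hairpin, had 0 counts in the T cell libraries of 3 groups and 3, 1 and 1 counts with the control partner at 48 h, which does not check its level in the partner cells. All 12 T cell markers were present, and at 48 h 1 of them was higher and 4 were lower with the shFabp7 partner. Their summed level was 3012 to 3110.5 CPM with the shFabp7 partner and 3048 to 3062 CPM with the control partner at 48 h, and 3972 to 4140.3 CPM with the shFabp7 and 3985 to 4179 CPM with the control partner at 24 h. Markers of B cells, monocytes and macrophages, neutrophils, dendritic cells, NK cells, red cells, epithelium, melanocytes and fibroblasts summed to at most 23.6 CPM per list in any library. In bulk RNA, fewer cells of a type and less RNA per cell cannot be told apart.

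The members spanned more than 3 orders of magnitude in level, and reads were divided by the longest GENCODE transcript of each gene so that genes could be compared. As the mean of the 4 groups, Sod1, the cytosolic copper-zinc superoxide dismutase, stood highest at 378 CPM per kb. Txn1, cytosolic thioredoxin, followed at 259, then Tkt, transketolase, at 142, Prdx1, a cytosolic peroxiredoxin, at 123 and Gpx4, the peroxidase of lipid peroxides, at 117 CPM per kb. The place of Prdx1 depended on the transcript length used, since with the median length of its transcripts it led the list at 426 CPM per kb. At the low end stood Nqo1, a quinone reductase, at 0.574, Me1, the cytosolic malic enzyme, at 0.162 and Slc7a11, the cystine importer, at 0.131 CPM per kb. These 3 genes had between 8 and 73 counts in a library, so their values carry more error than those of the other members.

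NRF2 binds the antioxidant response element, and the 250 bases before the start of each gene were searched for its core, TGACNNNGC, on both strands (on the other strand it reads GCNNNGTCA). Promoters of 30 of the 34 members were in the RefSeq table of build GRCm38.p6, an older build than the GRCm39 of the counts, and those of Prdx6, Gclc, Gsr and Hmox1 were not analysed here. The core was found before 6 of the 30 members, against 11.5% of 27025 genes with a promoter in the table. These were G6pdx, Txnrd1, Prdx1, Gclm, Sod1 and Nfe2l2, the gene of NRF2 itself. The sequences around the match are shown for 5 of them, because the first 3 were higher with the shFabp7 partner at 48 h while Gclm and Sod1 did not pass the test there. Each reads 5′ to 3′ along the gene, with the core in capitals.
G6pdx, chrX:74428889-74428977, minus strand: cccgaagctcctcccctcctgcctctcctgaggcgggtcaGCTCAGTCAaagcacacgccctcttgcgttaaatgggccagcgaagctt
Txnrd1, chr10:82859074-82859162, plus strand: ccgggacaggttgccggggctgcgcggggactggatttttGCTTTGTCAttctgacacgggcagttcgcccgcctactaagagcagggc
Prdx1, chr4:116685426-116685514, plus strand: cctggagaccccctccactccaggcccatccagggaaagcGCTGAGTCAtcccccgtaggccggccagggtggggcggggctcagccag
Gclm, chr3:122245383-122245471, plus strand: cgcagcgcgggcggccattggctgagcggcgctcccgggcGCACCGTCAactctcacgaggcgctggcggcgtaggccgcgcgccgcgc
Sod1, chr16:90220666-90220754, plus strand: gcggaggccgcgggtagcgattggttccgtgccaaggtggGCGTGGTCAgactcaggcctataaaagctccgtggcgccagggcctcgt
The 5 cores shown lie on the strand opposite to the gene, at 57, 92, 133, 134 and 56 bases before the start in the order shown. That of Nfe2l2, which did not pass at 48 h either and is not shown, lies on the gene's own strand, 240 bases before the start. The core of Prdx1 overlaps an AP-1 motif, TGACTCA or TGAGTCA on the other strand, the element bound by JUN and FOS proteins. AP-1 motifs were found before 3 of the 30 members (10.0%), namely Prdx1, Srxn1 and Glrx, against 5.16% of all genes. Srxn1, which encodes sulfiredoxin, held 2 copies of TGAGTCA, one of which is shown here because it stood nearest to the start.
Srxn1, chr2:152105439-152105523, plus strand: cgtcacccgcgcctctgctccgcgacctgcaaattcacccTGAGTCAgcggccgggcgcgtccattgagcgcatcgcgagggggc
The E-box CACGTG, the element of MYC and related factors, was found before 1 member, Prdx4, or 3.33%, against 6.86% of all genes. These are matches of letters and say nothing of binding.

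At 48 h, 15 of the 34 members (44.1%) were higher with the shFabp7 partner than with the control partner in edgeR's quasi-likelihood test, at a Benjamini-Hochberg adjusted p under 0.05 over 16945 genes. Of all genes tested, 19.9% were higher and 11.6% lower in the same comparison. No member passed as lower, and at an unadjusted p under 0.05 there were 19 members higher and 1 lower. DESeq2 called 16 higher and 0 lower. The median log2 fold change was 0.17 over the members and 0.014 over all genes tested. Summed over the 34 members, the level was 3365 ± 44.0 CPM with the shFabp7 partner and 2864 ± 23.4 CPM with the control partner at 48 h.

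**Figure D1:**
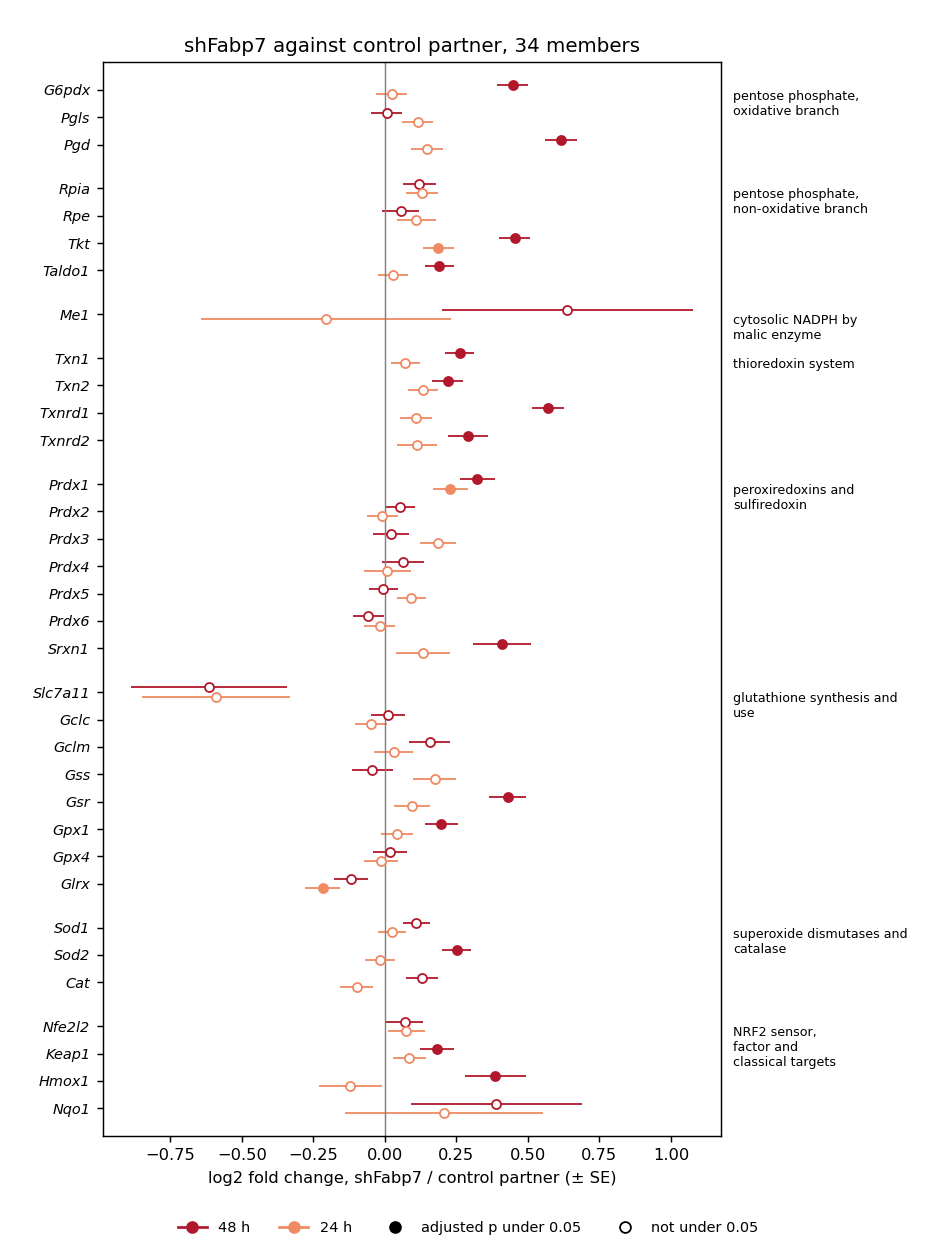
Log2 fold change of the shFabp7 over the control partner for each of the 34 members, at 48 h (dark) and 24 h (light), with bars of 1 SE and filled points where the adjusted p was under 0.05. The 15 filled points at 48 h all lie right of 0, between 0.18 for Keap1 and 0.62 for Pgd, while at 24 h only Tkt, Prdx1 and Glrx are filled.

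In the oxidative branch, both NADPH-making dehydrogenases were higher, 2 of 3 members (66.7%) against 19.9% of all genes tested. G6pdx, glucose-6-phosphate dehydrogenase, the entry enzyme of the pathway, had 111, 116 and 121 CPM in the 3 shFabp7 libraries and 86.0, 85.2 and 84.0 CPM in the 3 control libraries at 48 h. The groups lay well apart (log2 fold change 0.45 ± 0.054, adjusted p = 8.71e-08). Pgd, 6-phosphogluconate dehydrogenase, the other NADPH step, had 138, 133 and 142 CPM with the shFabp7 partner against 99.0, 86.5 and 83.3 CPM with the control partner. It showed the largest fold change among the members that passed (log2 fold change 0.62 ± 0.057, adjusted p = 5.35e-10). Pgls, the lactonase that acts between these steps without making NADPH, had 69.8, 73.0 and 72.9 CPM with the shFabp7 partner and 73.9, 71.5 and 69.3 CPM with the control partner, and its groups overlapped (adjusted p = 0.949). G6pdx overlaps Ikbkg on the opposite strand, and the sources used here do not say whether counting used strand. Ikbkg did not pass the test at 48 h (adjusted p = 0.165).

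In the non-oxidative branch 2 of 4 members (50%) were higher with the shFabp7 partner at 48 h, against 19.9% of all genes tested. These were the carbon-transfer enzymes, and the isomerase and the epimerase of the pentose phosphates did not pass. Tkt, transketolase, had 491, 511 and 512 CPM with the shFabp7 partner and 396, 357 and 354 CPM with the control partner at 48 h. No library of one group reached the other (log2 fold change 0.45 ± 0.053, adjusted p = 5.41e-08). Taldo1, transaldolase, had 149, 148 and 153 CPM in shFabp7 libraries against 135, 133 and 126 CPM in control libraries, a smaller difference with no overlap (log2 fold change 0.19 ± 0.051, adjusted p = 0.004). Rpia, ribose-5-phosphate isomerase, had 39.3, 39.6 and 36.7 CPM with the shFabp7 partner and 36.6, 35.2 and 34.6 CPM with the control partner. Its groups did not overlap, but it missed the threshold on the adjusted p (adjusted p = 0.119). Rpe, ribulose-phosphate epimerase, had 52.4 ± 1.07 CPM with the shFabp7 and 50.5 ± 3.19 CPM with the control partner (adjusted p = 0.573). Me1, which makes NADPH in the cytosol from malate, had 22, 20 and 27 counts with the shFabp7 partner and 17, 15 and 13 counts with the control partner, without overlap in CPM (adjusted p = 0.291).

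All 4 members of the thioredoxin system were higher with the shFabp7 partner at 48 h, against 19.9% of all genes tested. Txnrd1, the cytosolic thioredoxin reductase, had 217, 226 and 229.6 CPM with the shFabp7 partner and 161, 144 and 149 CPM with the control partner. Every shFabp7 library was above every control library (log2 fold change 0.57 ± 0.056, adjusted p = 1.86e-09). Its substrate Txn1 had 307, 310.0 and 301 CPM with the shFabp7 partner against 249, 263 and 254 CPM with the control partner, again with no overlap (log2 fold change 0.26 ± 0.051, adjusted p = 0.000137). The mitochondrial pair was higher as well. Txn2 had 104 ± 1.98 CPM in shFabp7 libraries against 89.0 ± 3.13 CPM in control libraries (log2 fold change 0.22 ± 0.053, adjusted p = 0.00162). Txnrd2 had 22.4 ± 0.856 CPM in shFabp7 libraries against 18.3 ± 0.984 CPM in control libraries (log2 fold change 0.29 ± 0.070, adjusted p = 0.00152).

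Of the 6 peroxiredoxins, 1 passed, and together with sulfiredoxin 2 of 7 (28.6%) were higher, against 19.9% of all genes tested. Prdx1 had 227, 228 and 221 CPM with the shFabp7 partner and 169, 183 and 188 CPM with the control partner at 48 h, and the groups did not overlap (log2 fold change 0.32 ± 0.062, adjusted p = 0.000145). Srxn1, sulfiredoxin, which repairs over-oxidised peroxiredoxins, had 11.8 to 14.9 CPM in shFabp7 libraries and 8.75 to 10.7 CPM in control libraries. Its lowest shFabp7 library was still above its highest control library (log2 fold change 0.41 ± 0.10, adjusted p = 0.00201). Cytosolic Prdx2 (108 ± 1.45 with the shFabp7 and 104 ± 4.28 CPM with the control partner), mitochondrial Prdx3 (89.6 ± 1.57 with the shFabp7 and 88.2 ± 8.14 CPM with the control partner), Prdx4 of the secretory pathway (33.2 ± 2.03 with the shFabp7 and 31.8 ± 1.70 CPM with the control partner), Prdx5 (77.8 ± 1.91 with the shFabp7 and 78.1 ± 1.54 CPM with the control partner) and Prdx6, the 1-cysteine type (142 ± 5.38 with the shFabp7 and 148 ± 5.41 CPM with the control partner), all had overlapping groups. Their adjusted p-values were 0.46, 0.836, 0.564, 0.945 and 0.453 in that order.

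Among the glutathione genes, 2 of 8 (25%) were higher with the shFabp7 partner, near the 19.9% of all genes tested that were higher. Gsr, glutathione reductase, which uses NADPH to recycle the oxidised form, had 46.7, 52.0 and 51.4 CPM with the shFabp7 partner and 38.0, 37.4 and 36.0 CPM with the control partner at 48 h. The groups were clearly apart (log2 fold change 0.43 ± 0.064, adjusted p = 2.84e-06). Gpx1, the cytosolic glutathione peroxidase, had 62.3, 66.1 and 64.4 CPM in shFabp7 libraries against 54.6, 58.2 and 55.3 CPM in control libraries, and was slightly higher (log2 fold change 0.20 ± 0.057, adjusted p = 0.0074). The synthesis genes did not pass. Gclc, the catalytic subunit of the limiting enzyme, had 45.3 ± 3.53 CPM with the shFabp7 and 44.9 ± 0.992 CPM with the control partner (adjusted p = 0.917), and its modifier subunit Gclm had 25.3 ± 0.417 CPM with the shFabp7 and 22.7 ± 1.78 CPM with the control partner, without overlap (adjusted p = 0.0927). Gss, glutathione synthetase, had 25.1 ± 0.448 CPM with the shFabp7 and 25.9 ± 0.752 CPM with the control partner (adjusted p = 0.687). Slc7a11 had 31, 27 and 29 counts with the shFabp7 partner and 55, 49 and 31 counts with the control partner, with overlap in CPM (adjusted p = 0.0863). Gpx4 had 151 ± 1.74 CPM with the shFabp7 and 149 ± 10.8 CPM with the control partner (adjusted p = 0.855) and Glrx, glutaredoxin, 55.4 ± 1.48 CPM with the shFabp7 and 60.2 ± 4.49 CPM with the control partner (adjusted p = 0.125).

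Sod2, the mitochondrial manganese superoxide dismutase, was higher, with 77.7, 75.9 and 79.8 CPM in shFabp7 libraries and 63.1, 67.5 and 65.4 CPM in control libraries at 48 h (log2 fold change 0.25 ± 0.052, adjusted p = 0.000259). Sod1 had 261, 273 and 263 CPM with the shFabp7 partner and 243, 252 and 245 CPM with the control partner, a non-overlapping difference that missed the threshold (adjusted p = 0.0792), and DESeq2 called it higher (adjusted p = 0.0158). Cat, catalase, had 59.6 ± 1.71 CPM with the shFabp7 and 54.5 ± 3.17 CPM with the control partner (adjusted p = 0.0795). Of the NRF2 group, Hmox1, heme oxygenase 1, had 11.2, 12.8 and 13.9 CPM with the shFabp7 partner against 10.5, 9.42 and 9.04 CPM with the control partner (log2 fold change 0.39 ± 0.11, adjusted p = 0.00561). Keap1 had 70.9, 74.1 and 72.2 CPM in shFabp7 libraries against 68.7, 61.4 and 61.3 CPM in control libraries, the smallest of the 15 differences (log2 fold change 0.18 ± 0.059, adjusted p = 0.0156). Nfe2l2 had 40.1 to 41.7 CPM with the shFabp7 and 36.4 to 41.3 CPM with the control partner (adjusted p = 0.447). Nqo1 had 1.26 ± 0.209 CPM with the shFabp7 and 0.956 ± 0.290 CPM with the control partner (adjusted p = 0.351). Of the members with an antioxidant response element core shown or named above, 3 of 6 were higher with the shFabp7 partner at 48 h. Of those searched without one, 10 of 24 were. Of all genes tested, 19.9% were higher, and the share among all genes with the core was not counted.

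Of the 15 calls at 48 h, 10 passed under every alternative run. Under upper-quartile scaling Taldo1, Gpx1, Keap1 and Txn2 missed the threshold (adjusted p = 0.115, 0.134, 0.22 and 0.0511) while Prdx6, Slc7a11 and Glrx passed as lower, which gave 11 members higher and 3 lower. With library totals as the scaling there were 12 higher and 3 lower, and over all genes this scaling turned 3380 higher and 1972 lower calls into 2157 and 3168. Hmox1 missed the threshold without shFabp7 replicate 3 (adjusted p = 0.0514), and Keap1 without shFabp7 replicate 2 (adjusted p = 0.0713), control replicate 2 (adjusted p = 0.0824) or control replicate 3 (adjusted p = 0.0789). Without control replicate 1, Gclm and Cat passed as higher (adjusted p = 0.0234 and 0.0211) and Glrx as lower (adjusted p = 0.0239), and without control replicate 3 Slc7a11 passed as lower (adjusted p = 0.0238). Neutrophil markers summed to 1.97 to 3.69 CPM with the shFabp7 partner and 3.32 to 8.59 CPM with the control partner at 48 h, with 7 of 8 present and Retnlg at 0 in both groups. Epithelial markers summed to 4.53 to 6.03 CPM with 5 of 6 present and Krt19 at 0 in the shFabp7 group, and to 6.79 to 7.58 CPM with 6 of 6 present in the control group. Their part in the result was not tested.

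At 24 h few members passed by partner. In edgeR's test 2 of 34 (5.88%) were higher with the shFabp7 partner and 1 (2.94%) was lower, against 6.22% and 4.65% of all genes tested. The median log2 fold change was 0.074 over the members and -0.0041 over all genes. Tkt had 532, 496 and 499 CPM with the shFabp7 partner and 424, 467 and 451 CPM with the control partner, without overlap (log2 fold change 0.19 ± 0.053, adjusted p = 0.0205). Prdx1 had 364, 409 and 392 CPM in shFabp7 libraries against 356, 349 and 290.5 CPM in control libraries, the lowest shFabp7 library lying just above the highest control library (log2 fold change 0.23 ± 0.062, adjusted p = 0.0153). Glrx, which reduces proteins bound to glutathione, was lower, with 35.0, 36.4 and 36.2 CPM in shFabp7 libraries against 39.7, 42.5 and 42.8 CPM in control libraries (log2 fold change -0.22 ± 0.062, adjusted p = 0.0195). Each of these 3 calls was lost under some alternatives, and with library totals as the scaling only Glrx passed (adjusted p = 0.0657 for Tkt and 0.0529 for Prdx1). Tkt missed the threshold without shFabp7 replicate 1 (adjusted p = 0.0826) or control replicate 1 (adjusted p = 0.0974), and Prdx1 without shFabp7 replicate 2 (adjusted p = 0.0557) or control replicate 3 (adjusted p = 0.0713). Glrx missed it without any 1 shFabp7 library (adjusted p = 0.131, 0.0712 and 0.0637 for replicates 1, 2 and 3) and without control replicate 2 or 3 (adjusted p = 0.0744 and 0.107).

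Several members lay near the threshold at 24 h. Prdx3 had 116, 125 and 121 CPM with the shFabp7 partner and 109.7, 114 and 94.8 CPM with the control partner (adjusted p = 0.052). Pgd had 158, 150.0 and 161 CPM with the shFabp7 partner and 138, 146 and 140.2 CPM with the control partner (adjusted p = 0.0895). Txn2 had 214, 197 and 207 CPM with the shFabp7 partner and 182, 201 and 179.7 CPM with the control partner (adjusted p = 0.0917). Prdx3 and Pgd had no overlap between groups, and Txn2 did. All 3, and Rpia with them, passed with DESeq2 (adjusted p = 0.0144 for Prdx3, 0.0269 for Pgd, 0.0202 for Txn2 and 0.0378 for Rpia). Without control replicate 2 they also passed, and Txn1 with them (adjusted p = 0.0399 for Txn1, 0.00808 for Prdx3, 0.032 for Pgd and 0.00788 for Txn2), which brought the count to 6. Prdx3 also passed without shFabp7 replicate 1 (adjusted p = 0.0459), Txn2 without shFabp7 replicate 2 (adjusted p = 0.0488), Gss without shFabp7 replicate 3 (adjusted p = 0.0387) and Rpia without control replicate 3 (adjusted p = 0.0497). G6pdx, which was higher at 48 h, had 113, 110.2 and 114 CPM with the shFabp7 partner and 103, 119.8 and 109 CPM with the control partner at 24 h, and the groups overlapped (adjusted p = 0.839). Txnrd1 had 210.5, 203 and 192 CPM with the shFabp7 partner and 172, 189 and 200.1 CPM with the control partner, also with overlap (adjusted p = 0.227).

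Whether the partner mattered more at 48 h than at 24 h was tested as the difference between the partner effects, in the same fit. The effect was larger at 48 h for 7 members (20.6%), against 4.43% of all genes tested with a higher and 1.17% with a lower difference. No member passed with a lower difference, and at an unadjusted p under 0.05 there were 10 higher and 1 lower. DESeq2 called 7 higher and 0 lower. The difference was 0.47 ± 0.080 on the log2 scale for Pgd (adjusted p = 0.000539), 0.46 ± 0.079 for Txnrd1 (adjusted p = 0.000568) and 0.42 ± 0.077 for G6pdx (adjusted p = 0.000881). These 3 passed under all 19 alternatives. Hmox1 differed by 0.51 ± 0.15 (adjusted p = 0.0438), Gsr by 0.33 ± 0.090 (adjusted p = 0.0224), Sod2 by 0.27 ± 0.073 (adjusted p = 0.0244) and Tkt by 0.27 ± 0.075 (adjusted p = 0.0308). For 6 of the 7, every control library at 48 h was below each of the other 9 libraries, and for Hmox1 they overlapped the shFabp7 libraries at 24 h. The 7 were picked by a test on these same libraries, so this separation is no further evidence. Its share over all genes was not counted. G6pdx stood at 116 ± 4.82 CPM with the shFabp7 partner and 85.1 ± 0.985 CPM with the control partner at 48 h, and at 112 ± 2.10 CPM with the shFabp7 and 111 ± 8.49 CPM with the control partner at 24 h. Prdx1, higher at both times, had partner effects of 0.32 ± 0.062 at 48 h and 0.23 ± 0.062 at 24 h, and their difference did not pass (adjusted p = 0.623).

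**Figure D2:**
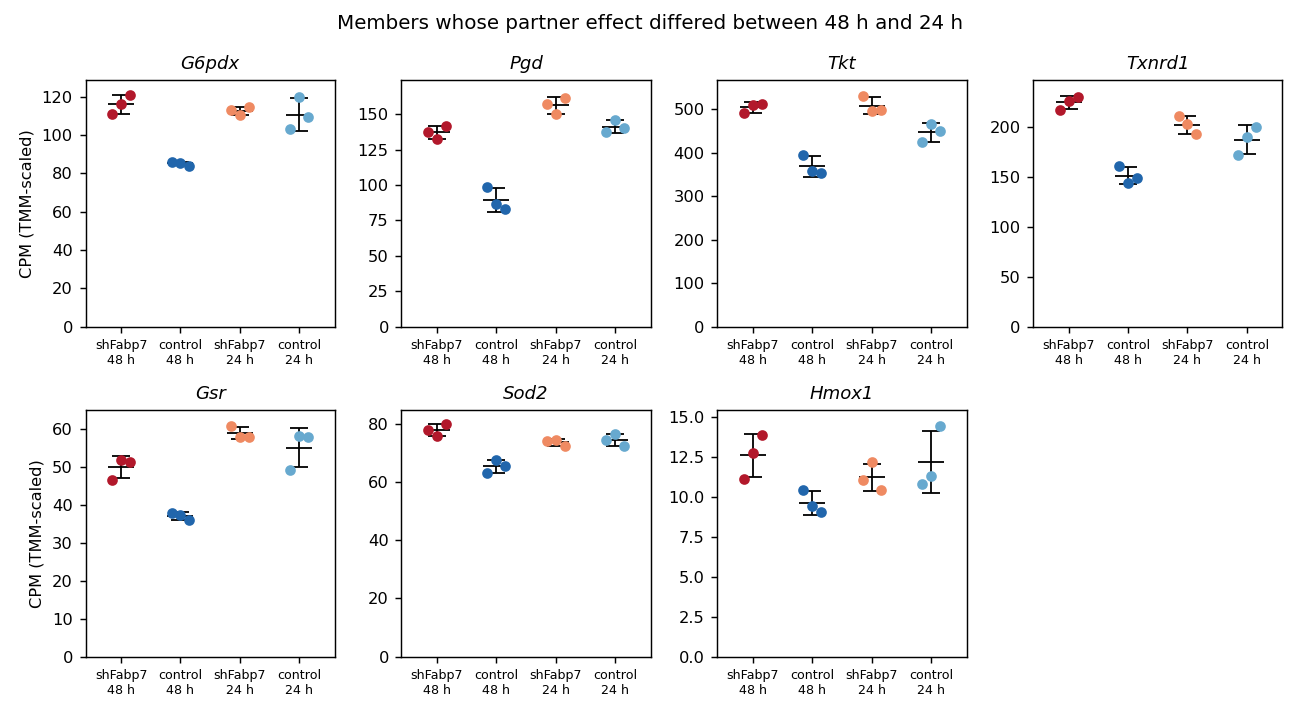
Level in each library, in TMM-scaled CPM from 0, of the 7 members whose partner effect differed between 48 h and 24 h, by group, with the mean and SD of 3 libraries. In every panel the 3 control libraries at 48 h are below the 3 shFabp7 libraries at 48 h, and G6pdx has 84.0 to 86.0 CPM in the control libraries at 48 h and over 100 CPM in each of the other 9 libraries.

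The other 4 differences missed the threshold under upper-quartile scaling and with library totals, and each did when some single library was left out. Tkt also missed it under RLE scaling (adjusted p = 0.0539) and without a filter (0.0697), and Sod2 without a filter (0.138). Hmox1 missed it under RLE scaling (adjusted p = 0.0558), the stricter filter (0.0511) and the replicate block (0.0541). Tkt passed with a single library left out only where that was shFabp7 replicate 1 or control replicate 1 at 48 h, and its adjusted p otherwise lay between 0.0556 and 0.241. Gsr kept its call without replicate 1 of the shFabp7 partner at 48 h, replicate 1 or 2 of the control partner at 48 h or replicate 1 of the control partner at 24 h, with 0.0626 to 0.171 otherwise. Sod2 kept it without shFabp7 replicate 2 or any 1 control library at 48 h, with an adjusted p of 0.0551 to 0.192 otherwise. Hmox1 kept it without replicate 1 of the shFabp7 or the control partner at 48 h or of the control partner at 24 h, with 0.0892 to 0.28 otherwise. The count of members fell to 4 without shFabp7 replicate 2 or control replicate 3 at 48 h, and to 3 without shFabp7 replicate 3 at 48 h, any shFabp7 library at 24 h, or control replicate 2 or 3 at 24 h. Without control replicate 1 at 48 h it was 9, with Cat added as higher (adjusted p = 0.0225) and Prdx3 as lower (adjusted p = 0.0452).

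Between 24 h and 48 h most members changed with either partner, in both directions. The time effects with the 2 partners share no library with each other, but each shares its libraries with the partner effects above. With the shFabp7 partner 11 members (32.4%) were higher and 14 (41.2%) lower at 48 h than at 24 h, against 35.9% and 30.2% of all genes tested. With the control partner 7 (20.6%) were higher and 19 (55.9%) lower, against 35.8% and 32.0%. The median log2 fold change was 0.042 over the members with the shFabp7 partner and -0.27 with the control partner, and 0.061 and 0.044 over all genes. The members summed to 3365 ± 44.0 CPM at 48 h and 3563 ± 30.4 CPM at 24 h with the shFabp7 partner, and to 2864 ± 23.4 CPM at 48 h and 3336 ± 111 CPM at 24 h with the control partner. With library totals as the scaling the splits were 18 higher and 9 lower with the shFabp7 partner, and 13 higher and 12 lower with the control partner. That scaling moved the median of all genes by 0.15 and 0.19 on the log2 scale, and calls of small time effects were lost and others gained under it. Lost were, with the shFabp7 partner, Pgls (adjusted p = 0.328), Pgd (0.548), Gsr (0.205), Txnrd2 (0.7) and Prdx5, and with the control partner Tkt (adjusted p = 0.125), Txnrd1 (0.0536), Prdx3 (0.315), Hmox1 (0.219), Slc7a11 (0.185), Taldo1 and Sod2. Members not called in the TMM-scaled fit that passed as higher under library totals were, with the shFabp7 partner, G6pdx (adjusted p = 0.00185), Tkt (0.0182), Taldo1 (0.00124), Prdx6 (0.00177), Sod2 (0.00023), Nfe2l2 (0.00244) and Hmox1 (0.0122). Those with the control partner were Txn1 (adjusted p = 0.00156), Prdx5 (0.00512), Prdx6 (2.8e-05), Cat (0.00944), Nfe2l2 (0.00037) and Nqo1 (0.0326).

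**Figure D3:**
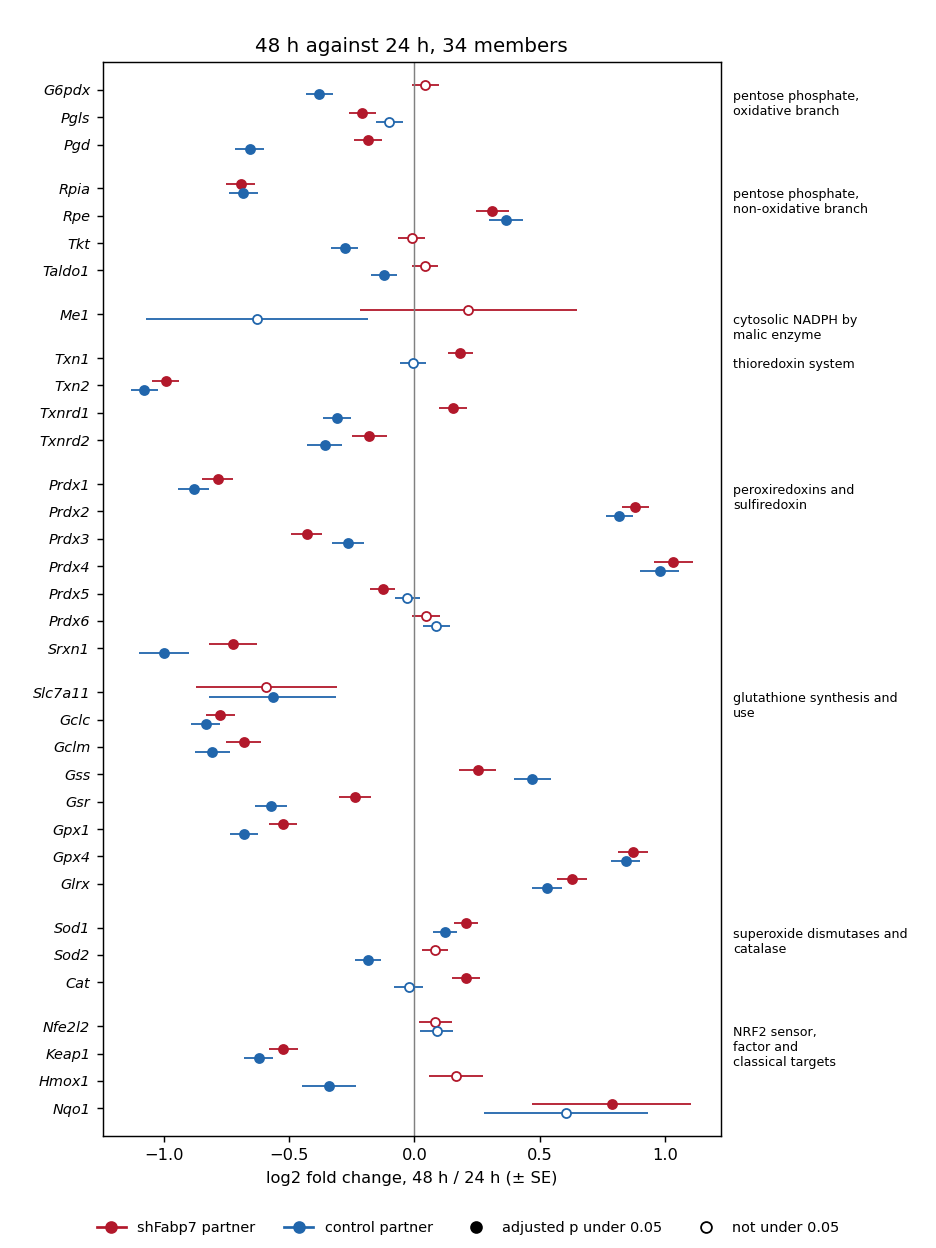
Log2 fold change of 48 h over 24 h for each of the 34 members, with the shFabp7 and the control partner, with bars of 1 SE and filled points where the adjusted p was under 0.05. Txn2 lies near -1 and Prdx4 near 1 with either partner, while G6pdx lies at 0.044 with the shFabp7 partner and at -0.38 with the control partner.

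The mitochondrial and peroxide-removing genes split by member. Txn2 showed the largest fall, to 105, 105 and 101 CPM at 48 h, against 214, 197 and 207 CPM at 24 h, with the shFabp7 partner. With the control partner it had 92.6, 87.1 and 87.3 CPM at 48 h and 182, 201 and 179.7 CPM at 24 h. All 6 libraries at 48 h were below all 6 at 24 h (log2 fold change -0.99 ± 0.053 and -1.08 ± 0.053 with the shFabp7 and the control partner, adjusted p = 1.27e-17 and 1.45e-18). Prdx1 also fell with both partners (-0.79 ± 0.062 and -0.88 ± 0.062, adjusted p = 1.65e-12 and 1.14e-13), as did Srxn1 (mean 13.2 CPM at 48 h and 21.8 CPM at 24 h with the shFabp7 partner, 9.95 and 19.9 CPM with the control partner, adjusted p = 5.9e-08 and 9.9e-11) and Prdx3 (-0.43 ± 0.063 and -0.27 ± 0.063, adjusted p = 4.69e-07 and 0.000445). Prdx2 and Prdx4 rose instead. Prdx4, the peroxiredoxin of the secretory pathway, had 31.6, 35.5 and 32.7 CPM at 48 h and 17.3, 17.1 and 14.5 CPM at 24 h with the shFabp7 partner, and 30.7, 33.8 and 31.0 CPM at 48 h and 17.2, 15.3 and 15.9 CPM at 24 h with the control partner. It rose with both (log2 fold change 1.03 ± 0.078 and 0.98 ± 0.077, adjusted p = 1.2e-13 and 3.3e-13). Prdx2 had 108, 109.8 and 107 CPM at 48 h and 58.8, 59.0 and 58.5 CPM at 24 h with the shFabp7 partner, and 99.5, 108 and 105 CPM at 48 h and 55.8, 60.2 and 61.5 CPM at 24 h with the control partner (log2 fold change 0.88 ± 0.053 and 0.82 ± 0.053, adjusted p = 3.06e-16 and 1.77e-15). Prdx2 is abundant in red cells. Red cell markers summed to at most 1.34 CPM in any library, and the part of red cells in the rise was not tested. Prdx2 overlaps Junb on the opposite strand, which also rose over time (log2 fold change 0.30 ± 0.051 and 0.27 ± 0.051), and reads of the overlap were not separated here.

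**Figure D4:**
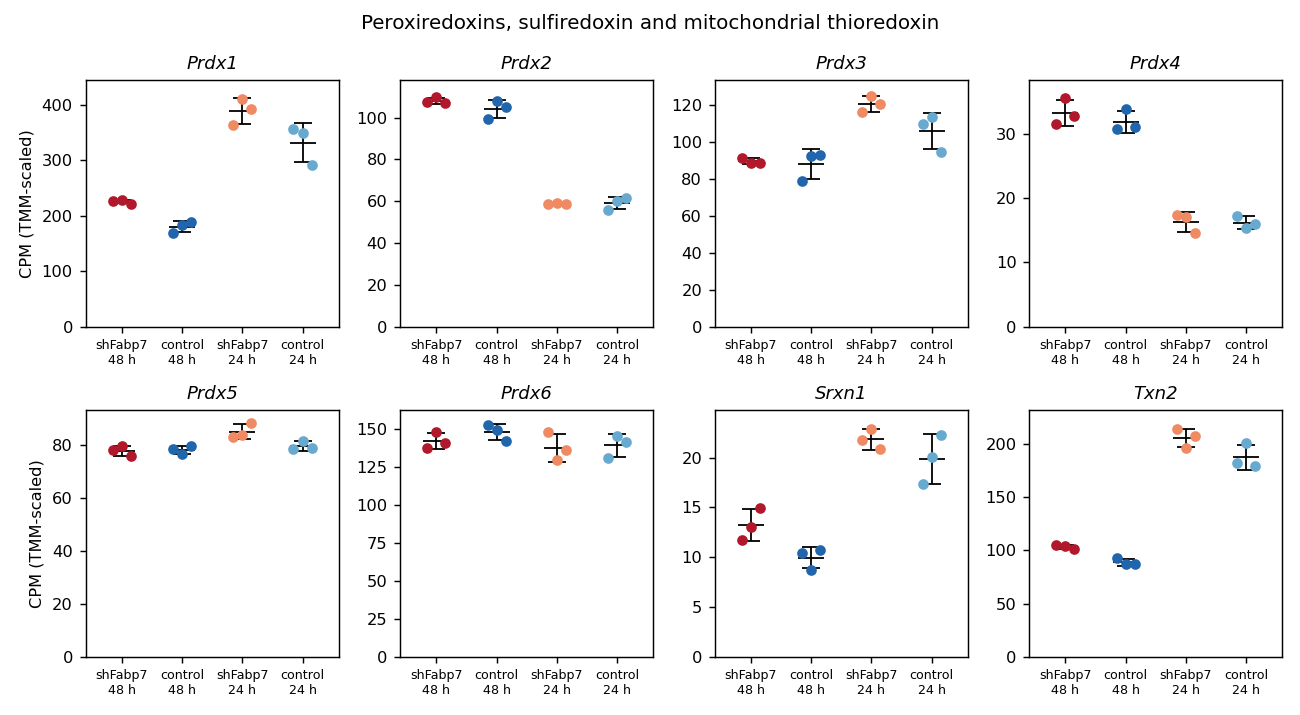
Level in each library, in TMM-scaled CPM from 0, of the 6 peroxiredoxins, Srxn1 and Txn2 by group, with the mean and SD of 3 libraries. Prdx1, Prdx3, Srxn1 and Txn2 are lower in every library at 48 h than in any library at 24 h, Prdx2 and Prdx4 are higher, and the libraries of Prdx6 overlap between 48 h and 24 h.

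Of the 8 glutathione genes, 3 (37.5%) rose and 4 (50%) fell over time with the shFabp7 partner, against 35.9% and 30.2% of all genes tested. With the control partner 3 (37.5%) rose and 5 (62.5%) fell, against 35.8% and 32.0%. Gclc had 42.4, 44.2 and 49.2 CPM at 48 h and 76.6, 80.1 and 75.6 CPM at 24 h with the shFabp7 partner, and 45.5, 45.5 and 43.8 CPM at 48 h and 77.1, 81.9 and 81.0 CPM at 24 h with the control partner. It fell with both (log2 fold change -0.77 ± 0.058 and -0.83 ± 0.058, adjusted p = 9.15e-14 and 1.11e-14), and Gclm fell with it (-0.68 ± 0.070 and -0.81 ± 0.070, adjusted p = 1.84e-10 and 3.25e-12). Gss, the next enzyme, rose (0.25 ± 0.073 and 0.47 ± 0.073, adjusted p = 0.00294 and 8.21e-07). Gss overlaps Acss2 on the opposite strand, which rose more (1.26 ± 0.11 and 1.43 ± 0.10), and Gclm overlaps Gm17494, which rose (1.09 ± 0.14 and 0.63 ± 0.14). Gpx4 had 149, 152 and 152 CPM at 48 h and 81.1, 84.9 and 81.4 CPM at 24 h with the shFabp7 partner, and 137, 152 and 158 CPM at 48 h and 88.8, 86.5 and 74.4 CPM at 24 h with the control partner, an increase with both (0.87 ± 0.060 and 0.84 ± 0.059, adjusted p = 8.88e-15 and 1.81e-14). Its pseudogene Gpx4-ps2 held 1.7% as many counts, and reads between them could have been split. Gpx1 fell (-0.52 ± 0.056 and -0.68 ± 0.057, adjusted p = 6.08e-10 and 1.24e-12), Gsr fell (-0.24 ± 0.063 and -0.57 ± 0.064, adjusted p = 0.00128 and 1.19e-09) and Glrx rose (0.63 ± 0.061 and 0.53 ± 0.060, adjusted p = 5.21e-11 and 1.5e-09). Sod1 rose with both partners (0.21 ± 0.048 and 0.12 ± 0.048, adjusted p = 0.000307 and 0.0251).

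Of the 7 pentose phosphate genes, 3 fell with the shFabp7 partner and 5 with the control partner, and Rpe rose with both. Of all genes tested, 30.2% fell and 35.9% rose with the shFabp7 partner. With the control partner 32.0% fell and 35.8% rose. Pgd fell with both, to 138, 133 and 142 CPM at 48 h against 158, 150.0 and 161 CPM at 24 h with the shFabp7 partner, and to 99.0, 86.5 and 83.3 CPM against 138, 146 and 140.2 CPM with the control partner. The fall was larger with the control partner (log2 fold change -0.19 ± 0.056 with the shFabp7 and -0.66 ± 0.057 with the control partner), and the test of that difference is the one of the partner effects given above, since both are the same contrast. G6pdx fell with the control partner (-0.38 ± 0.054, adjusted p = 1.89e-07), and with the shFabp7 partner did not pass (0.044 ± 0.054, adjusted p = 0.488), although it passed as higher with library totals. Tkt fell with the control partner (-0.28 ± 0.053, adjusted p = 2.63e-05) and did not pass with the shFabp7 partner (-0.011 ± 0.053, adjusted p = 0.867), although with library totals it passed there as higher (0.14, adjusted p = 0.0182). Taldo1 fell slightly with the control partner (-0.12 ± 0.051, adjusted p = 0.0357), while its value was 0.068 with library totals as the scaling, where it missed the threshold (adjusted p = 0.23). Rpia fell with both partners (-0.69 ± 0.057 and -0.68 ± 0.057, adjusted p = 1.15e-12 and 1.59e-12) and Rpe rose with both (0.31 ± 0.067 and 0.37 ± 0.067, adjusted p = 0.000122 and 1.2e-05). Pgls fell with the shFabp7 partner (-0.21 ± 0.054, adjusted p = 0.00114). Txnrd1 rose with the shFabp7 partner (0.15 ± 0.056, adjusted p = 0.0171) and fell with the control partner (-0.31 ± 0.056, adjusted p = 1.11e-05). Its rise was lost in 7 of 14 alternatives, among them DESeq2 (adjusted p = 0.09), RLE scaling (0.0764), no filter (0.0667) and the fit without shFabp7 replicate 3 at 24 h (0.228).

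Further members passed over time. Keap1 fell with both partners (-0.52 ± 0.058 and -0.62 ± 0.058, adjusted p = 1.15e-09 and 2.27e-11) and Txnrd2 did too (-0.18 ± 0.070 and -0.36 ± 0.070, adjusted p = 0.0228 and 3.45e-05). With the shFabp7 partner Txn1 rose (0.18 ± 0.051, adjusted p = 0.00209), Cat rose (0.21 ± 0.057, adjusted p = 0.00209), Nqo1 rose (0.79 ± 0.32, adjusted p = 0.0295) and Prdx5 fell (-0.13 ± 0.051, adjusted p = 0.0282; 0.021 and adjusted p = 0.726 with library totals as the scaling). With the control partner Sod2 fell (-0.19 ± 0.052, adjusted p = 0.0019; 0.0028 and adjusted p = 0.966 with library totals), Hmox1 fell (-0.34 ± 0.11, adjusted p = 0.00612) and Slc7a11 fell (-0.57 ± 0.25, adjusted p = 0.0467). Prdx5 overlaps Trmt112 on the opposite strand, which fell with both partners (-0.86 ± 0.058 and -0.75 ± 0.058). Me1, Nfe2l2 and Prdx6 passed in none of the 5 comparisons. Nfe2l2 had 35.2 to 41.1 CPM in shFabp7 libraries and 35.4 to 38.1 CPM in control libraries at 24 h, next to the values at 48 h above. Nfe2l2 did pass as higher over time with both partners when library totals were the scaling (adjusted p = 0.00244 and 0.00037), and Prdx6 likewise (adjusted p = 0.00177 and 2.8e-05).

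Some time calls depended on 1 library. With the shFabp7 partner Txnrd1 missed the threshold without replicate 2 or 3 at 48 h (adjusted p = 0.0554 and 0.0686) or at 24 h (adjusted p = 0.1 and 0.228), and Txnrd2 without replicate 2 or 3 at 48 h (adjusted p = 0.0783 and 0.0725). Prdx5 missed it without replicate 1 or 3 at 48 h (adjusted p = 0.0518 and 0.114) or replicate 3 at 24 h (adjusted p = 0.0561), Gss without replicate 3 at 24 h (adjusted p = 0.0891), and Nqo1 without replicate 2 at 48 h or replicate 1 or 2 at 24 h (adjusted p = 0.119, 0.147 and 0.13). With the control partner Taldo1 missed it without replicate 3 at 48 h or replicate 2 or 3 at 24 h (adjusted p = 0.151, 0.285 and 0.162), Sod1 without replicate 2 at 48 h (adjusted p = 0.0993) and Hmox1 without replicate 3 at 24 h (adjusted p = 0.153). Slc7a11 missed it without any 1 of 5 control libraries, with an adjusted p of 0.0523 to 0.263, and passed only without replicate 1 at 48 h. Nqo1 with the control partner passed as higher without replicate 1 at 48 h (adjusted p = 0.0452), Prdx6 as higher without replicate 2 at 24 h (adjusted p = 0.0413) and Me1 as lower without replicate 3 at 24 h (adjusted p = 0.0421). Among T cell markers, Cd4 averaged 561, 562, 428 and 459 CPM and Cd8a 138, 161, 336 and 353 CPM in the shFabp7 and control groups at 48 h and the shFabp7 and control groups at 24 h. Dendritic cell markers summed to 20.6 to 21.6 and 18.9 to 22.3 CPM at 48 h with the shFabp7 and the control partner (5 of 6 present, Siglech at 0), and to 5.83 to 6.34 CPM (5 of 6 present, Clec9a at 0) and 5.81 to 7.49 CPM (6 of 6 present) at 24 h. The part of these cell markers in the time effects was not tested.

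The other genes of these pathways were read from lists of 94 symbols, of which 86 were tested. At 48 h 24 were higher with the shFabp7 partner (27.9%) and 11 lower (12.8%), against 19.9% and 11.6% of all genes tested. The folate enzyme Mthfd1, which makes NADPH in the cytosol, had 216 CPM with the shFabp7 partner and 134 CPM with the control partner (log2 fold change 0.70 ± 0.054, adjusted p = 2.55e-11). Tigar, a phosphatase that lowers glycolytic flux and favours the pentose phosphate pathway, was higher by 0.65 ± 0.064 (adjusted p = 2.2e-09) and the mitochondrial folate enzyme Mthfd1l by 0.57 ± 0.062 (adjusted p = 1.57e-08). The genes lower by the most were Msrb3, a methionine sulfoxide reductase (-1.04 ± 0.25, adjusted p = 0.00121), Sesn1, a sestrin (-0.60 ± 0.058, adjusted p = 1.32e-09) and Mgst2, a microsomal glutathione transferase (-0.50 ± 0.13, adjusted p = 0.0027). Msrb3 was low in level, with a mean of 0.955 CPM with the shFabp7 partner and 1.96 CPM with the control partner. Of the 16 other NADPH and pentose phosphate genes tested, 7 were higher and 1 lower. Of 12 further regulators of NRF2, 3 were higher and 1 lower.

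At 24 h 8 of the 86 (9.3%) were higher and 8 (9.3%) lower, against 6.22% and 4.65% of all genes tested. Glrx5, a mitochondrial glutaredoxin (0.31 ± 0.066, adjusted p = 0.00243), Sephs2, which makes selenophosphate (0.29 ± 0.055, adjusted p = 0.000874) and Mthfd1 (0.25 ± 0.053, adjusted p = 0.00243) were higher by the most. Hpgds, a prostaglandin D synthase (-0.77 ± 0.23, adjusted p = 0.0246), Mgst2 (-0.52 ± 0.15, adjusted p = 0.0198) and Blvrb, biliverdin reductase B (-0.50 ± 0.11, adjusted p = 0.00354) were lower by the most. Hpgds was low in level, with a mean of 1.07 CPM with the shFabp7 partner and 1.82 CPM with the control partner. Hpgds missed the threshold without any 1 library at 24 h other than control replicate 1 (adjusted p 0.0515 to 0.116), and Mgst2 without replicate 1 or 2 of either partner (0.0612 to 0.0996). Monocyte and macrophage markers summed to 11.5 to 12.9 CPM with the shFabp7 partner and 14.1 to 15.8 CPM with the control partner at 24 h, with 10 of 10 present in both groups, and their part in these decreases was not tested. The log2 partner effect at 48 h minus that at 24 h was above 0 for 7 of the 86 genes (8.14%) and below 0 for 1 (1.16%) among those that passed, against 4.43% and 1.17% of all genes tested. The positive differences included those of Mthfd1l (0.52 ± 0.086, adjusted p = 0.000495) and Mthfd1 (0.44 ± 0.075, adjusted p = 0.000539). The negative one was that of Sesn1 (-0.37 ± 0.084, adjusted p = 0.00749), which was lower with the shFabp7 partner at both times and more so at 48 h (-0.60 ± 0.058 at 48 h and -0.23 ± 0.061 at 24 h, adjusted p = 1.32e-09 and 0.0126).

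Over time 40 of the 86 (46.5%) rose and 28 (32.6%) fell with the shFabp7 partner, against 35.9% and 30.2% of all genes tested. With the control partner 38 (44.2%) rose and 30 (34.9%) fell, against 35.8% and 32.0%. With the shFabp7 partner Gsta4 (2.20 ± 0.46, adjusted p = 8.36e-05), Gstm5 (2.06 ± 0.32, adjusted p = 9.55e-07), both glutathione transferases, and Blvrb (1.93 ± 0.10, adjusted p = 9.72e-18) rose most. Both transferases were low in level there. Gsta4 averaged 0.743 CPM at 48 h and 0.158 CPM at 24 h, and Gstm5 averaged 1.69 CPM at 48 h and 0.397 CPM at 24 h. Txnrd3, a reductase for thioredoxin and glutathione (-1.90 ± 0.10, adjusted p = 7.67e-18), Msrb3 (-1.10 ± 0.25, adjusted p = 0.000243) and Mafk, a small MAF partner of NRF2 (-0.97 ± 0.053, adjusted p = 2.8e-17) fell most. With the control partner the largest increases were those of Gstm5 (2.14 ± 0.31, adjusted p = 3.07e-07), Aifm2, a ubiquinone reductase (1.83 ± 0.16, adjusted p = 6.72e-12) and Blvrb (1.75 ± 0.095, adjusted p = 1.52e-17). The largest decreases were those of Txnrd3 (-1.71 ± 0.10, adjusted p = 1.2e-16), Chac1, which degrades glutathione (-1.33 ± 0.48, adjusted p = 0.035) and Mafk (-1.04 ± 0.054, adjusted p = 4.77e-18). Chac1 missed the threshold without any 1 control library at 48 h (adjusted p 0.0676 to 0.0933). Of the 12 further regulators of NRF2, 9 (75.0%) fell and 1 rose with the shFabp7 partner, against 30.2% of all genes tested that fell, and 10 (83.3%) fell and 1 rose with the control partner, against 32.0%.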

How the data were processed

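RNA from 12 libraries of mouse spleen T cells (4 groups of 3) had been sequenced. The deposited table holds raw counts per gene symbol, whole numbers that the authors did not normalize. The submitters' processing notes list HTSeq 0.6.1p1, TopHat2 2.0.13 and CASAVA 1.8.2, with build GRCm39. Their settings, the annotation release and the use of strand are not given in the sources used here, and overlapping genes on opposite strands were not separated. Samples were grouped by the partner and time in their titles.

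Low genes were dropped with filterByExpr (10 counts, total of 15), leaving 16945 genes, and libraries were scaled by TMM. One model held all 12 libraries with a coefficient for each group, fitted with the robust quasi-likelihood method of edgeR 4.0.16 in R 4.3.3. P-values were adjusted over all genes (Benjamini-Hochberg, threshold 0.05). Log2 fold changes are given ± SE. The procedure was run on simulated counts for the partner comparison at 48 h alone. That run does not bear on the other comparisons, and its outcome is not given here. All 34 members are named, and of the other pathway genes the 3 largest changes per direction past the threshold in each comparison, apart from results not reported here. The members and lists were chosen with earlier results of these data known. Transcript lengths came from GENCODE and promoters from RefSeq, both of build GRCm38. Alternatives were DESeq2 1.42.0, RLE, upper-quartile or library-total scaling, no filter or a stricter filter, a fit of only the groups compared, a block for replicate number, and leaving out each library. For the other pathway genes these alternatives were added after seeing the data.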

Additional observations from a re-analysis of the deposited data

Results flagged for a closer look

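The partner effect differed between 48 h and 24 h by its own test in 7 members, which are given here as values. On the log2 scale, the effect at 48 h minus that at 24 h was 0.42 ± 0.077 for G6pdx, 0.47 ± 0.080 for Pgd, 0.46 ± 0.079 for Txnrd1, 0.27 ± 0.075 for Tkt, 0.33 ± 0.090 for Gsr, 0.27 ± 0.073 for Sod2 and 0.51 ± 0.15 for Hmox1. Each was a difference between groups past the threshold in edgeR's quasi-likelihood test (adjusted p = 0.000881, 0.000539, 0.000568, 0.0308, 0.0224, 0.0244 and 0.0438 in the same order). The calls of the first 3 held under all 19 alternatives, and the adjusted p of the other 4 reached 0.241, 0.171, 0.192 and 0.28 under some of them.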

How the results depend on the processing

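The count of 15 members called at 48 h by partner, all higher, was 14 to 18 under the alternatives, but split into 11 higher and 3 lower under upper-quartile scaling and 12 higher and 3 lower with library totals, and 10 of the 15 passed under every one. At 24 h the count of 3 moved to 7 with DESeq2, 6 with RLE scaling, 6 without a filter and 1 with library totals, and none of the 3 calls passed under every alternative. The 7 differences of the partner effect became 3 under upper-quartile scaling, 3 under library totals, 5 under RLE scaling and 5 without a filter. Of the 7, 3 passed under every alternative. With each library left out in turn the counts were 14 to 18 at 48 h, 2 to 6 at 24 h, 3 to 9 for the difference, 22 to 24 for time with the shFabp7 partner and 24 to 27 with the control partner. Of 25 and 26 time calls, 17 and 18 passed under every alternative. With library totals the time effect turned to 0.021 for Prdx5 (shFabp7 partner), 0.068 for Taldo1 and 0.0028 for Sod2 (control partner), none of them past the threshold. Members that the TMM-scaled fit did not call turned to called increases: 0.14 for Tkt (shFabp7 partner) and 0.18 for Txn1, 0.16 for Prdx5 and 0.17 for Cat (control partner). The cause of the other changes was not tested. The replicate block gave 15, 4, 6, 25 and 25 members called, against 15, 3, 7, 25 and 26 without it. Samples with the same number did not deviate together (correlations between -0.067 and 0.036). These are deviations from means of 3 libraries, so a source shared by samples of the same number is not excluded. With median transcript lengths, Prdx1 moved to rank 1 and Gclm to rank 19 in level per kb, against 4 and 31. Among the members, Me1, Nqo1 and Slc7a11, with at most 73 counts in a library, have the widest errors. Of the changes named for other pathway genes, those of Chac1, Hpgds and Mgst2 (at 24 h) were lost under some alternatives.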
